A study of Mus musculus with 3 samples.

Results

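The mouse gallbladder epithelium contained transcripts of genes best known from pancreatic juice. The 7 genes followed here are Ctrb1, Cela1, Reg1, Mup20, Prss2, Pnlip and Cpa1, out of 31053 genes in the count matrix. They were listed by symbol, and earlier results of these data were known when they were listed, so their levels are a description. Of the 7, Ctrb1, Reg1 and Mup20 were abundant in epithelial cells, and Cela1 was present at a much lower level. Prss2, Pnlip and Cpa1 were at or near 0 there. The name "pancreas-type" does not cover all members: Mup20 encodes a major urinary protein, a family best known from liver.

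Acinar cells of the pancreas make digestive enzymes as inactive zymogens, pack them in granules and release them into the duct. Chymotrypsinogen, elastase, trypsinogen, pancreatic lipase and carboxypeptidase are usually made together there, under transcription factors such as the PTF1 complex. The gallbladder is lined by a simple columnar epithelium of the biliary tree, which concentrates bile and secretes mucus. Biliary tree and ventral pancreas arise from neighbouring parts of the embryonic foregut.

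Gallbladders came from male C57BL/6 mice, and age was not given. The labels describe a control group gavaged with vehicle for 6 weeks, a group gavaged with nanoplastics for 3 weeks and a group gavaged with nanoplastics for 6 weeks. Each group was 1 library from 10 pooled gallbladders, dissociated with trypsin and sequenced as single cells with 10x Genomics 3′ chemistry. The matrix joins 3 libraries numbered 1, 2 and 3, and neither labels nor files tie a number to a group. Libraries are therefore unassigned samples, no control and exposed values were compared, and no p-value is given.

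After filtering, 24993 of 27700 barcodes were kept, 4263, 10933 and 9797 in libraries 1, 2 and 3, with medians of 10381, 9330 and 2288 unique molecular identifiers (UMIs) per cell. Cell types were gated by marker genes. This gave 9687 epithelial cells (1544, 6456 and 1687 by library), of which 97.9% had Epcam and 99.8% had Krt8, both of them gating markers. T cells served as a reading of background, since they should lack these genes. There were 1097, with a median of 2353 UMIs against 13391 in epithelium. Libraries shared few barcodes, 15 between libraries 1 and 2, 17 between 1 and 3 and 22 between 2 and 3. Levels are UMIs per 1000000 UMIs (CPM), summed over the cells of a type, with exact Poisson 95% intervals. Shares of positive cells have exact binomial (Clopper-Pearson) intervals, and both cover counting error only. Because a UMI marks the 3′ end of a molecule, CPM was not divided by gene length.

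The members lie on 5 chromosomes and are not neighbours in a cluster. Positions are from GENCODE M21 on GRCm38. Ctrb1 (ENSMUSG00000031957), chymotrypsinogen B1, is on the minus strand of chromosome 8, 111686519 to 111691010. Cela1 (ENSMUSG00000023031), a chymotrypsin-like elastase, is on the minus strand of chromosome 15, 100674421 to 100687921. Reg1 (ENSMUSG00000059654), a secreted C-type lectin of the regenerating family, is on the plus strand of chromosome 6, 78422711 to 78428667. Mup20 (ENSMUSG00000078672), which encodes the pheromone protein darcin, is on the minus strand of chromosome 4, 62050234 to 62054158. Prss2 (ENSMUSG00000057163), a trypsinogen, and Cpa1 (ENSMUSG00000054446), carboxypeptidase A1, are on the plus strand of chromosome 6, at 41521787 to 41525079 and 30639218 to 30645363. Pnlip (ENSMUSG00000046008), pancreatic lipase, is on the plus strand of chromosome 19, 58652498 to 58681788.

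Most reads of a 3′ library fall near a transcript's end, so the end must be distinct for a count to be trusted. In the last 500 bases of the transcript, no 50-base word of Ctrb1, Cela1, Reg1, Pnlip or Cpa1 occurred in a transcript of another gene. In Mup20, 27.7% of the words were shared, most of them with the pseudogene Mup-ps19. Prss2 shared 8.43%, most of them with the trypsinogen gene Try10. Mup20 and Prss2 counts are therefore less certain than the others. The only annotated overlap was Mir7076, a microRNA gene inside Ctrb1 on the same strand, which is no feature of the matrix.

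Upstream sequences are shown for the 3 epithelial members with an entry in the RefSeq promoter table and for Prss2, a zymogen gene with almost no epithelial UMIs. Of the 7 members, 6 had an entry. Mup20 had none. Each run is the 250 bases before the RefSeq gene start on GRCm38.p6, written 5′ to 3′ on the gene's own strand. The starts in RefSeq and GENCODE differ for some genes, among them Reg1.
The windows are chr8:111691011-111691260 (minus) for Ctrb1, chr6:78425733-78425982 (plus) for Reg1, chr15:100687921-100688170 (minus) for Cela1 and chr6:41521526-41521775 (plus) for Prss2. Capitals mark matches, on either strand, to 4 motifs: the E-box CACCTG bound by basic helix-loop-helix factors such as PTF1A, the RBPJ-type motif TGGGAA, the HNF1 half-site GTTAAT and the TATA box TATAAA.
Ctrb1: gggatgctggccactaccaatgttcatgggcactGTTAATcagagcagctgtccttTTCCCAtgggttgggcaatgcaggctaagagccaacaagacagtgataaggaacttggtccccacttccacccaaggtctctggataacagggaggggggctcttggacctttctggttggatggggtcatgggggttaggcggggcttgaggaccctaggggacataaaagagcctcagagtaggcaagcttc
Reg1: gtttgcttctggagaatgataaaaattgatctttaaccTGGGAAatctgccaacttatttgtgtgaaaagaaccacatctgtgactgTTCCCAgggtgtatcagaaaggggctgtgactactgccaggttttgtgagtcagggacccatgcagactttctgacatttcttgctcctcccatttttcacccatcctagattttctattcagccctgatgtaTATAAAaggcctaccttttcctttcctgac
Cela1: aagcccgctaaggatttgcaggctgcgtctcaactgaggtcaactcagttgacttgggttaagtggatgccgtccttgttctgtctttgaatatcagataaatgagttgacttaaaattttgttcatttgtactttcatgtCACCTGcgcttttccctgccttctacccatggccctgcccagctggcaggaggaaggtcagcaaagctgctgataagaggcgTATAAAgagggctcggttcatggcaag
Prss2: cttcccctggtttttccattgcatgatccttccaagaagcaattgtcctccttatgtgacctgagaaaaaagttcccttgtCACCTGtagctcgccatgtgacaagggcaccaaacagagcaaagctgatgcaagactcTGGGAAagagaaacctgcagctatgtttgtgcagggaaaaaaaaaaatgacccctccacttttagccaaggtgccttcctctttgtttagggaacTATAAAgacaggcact

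These 4 windows did not share 1 set of motifs. Ctrb1 held an RBPJ-type match at -194 (minus strand) and an HNF1 half-site at -216, counted from the gene start. Reg1 held RBPJ-type matches at -212 and -163 (minus strand) and a TATA box at -30. Cela1 held an E-box at -109 and a TATA box at -27. Prss2 held the E-box at -169, the RBPJ-type match at -111 and the TATA box at -16. Such short words are frequent. Among 32851 promoter windows of the same length, 17.2% held the E-box, 21.6% the RBPJ-type motif, 6.43% the HNF1 half-site and 12.4% the TATA box. A match is a string of letters and was not shown to be a site.

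Chymotrypsinogen B1 was the member with the most UMIs. Epithelial Ctrb1 stood at 876, 1027 and 827 CPM by library (1, 2 and 3, an order kept throughout), and at 949 CPM (944 to 954) over all cells. T cell values were 13.6, 39.8 and 38.1 CPM. Every library's epithelial level thus lay far above its own T cell level, and the pooled ratio was 31.3 (25.5 to 38.7). It took rank 155 among all genes in epithelium. Ctrb1 was seen in 64.4% of epithelial cells (63.5 to 65.4%) and 8.11% of T cells (6.57 to 9.89%). With every cell thinned to 1000 UMIs, the shares were 34.4% of 9547 epithelial cells and 4.20% of 1071 T cells.

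Reg1, studied mainly as a growth-promoting lectin of injured pancreas and gut, was at 784, 604 and 676 CPM in the epithelium of libraries 1, 2 and 3. Over all epithelial cells it was at 667 CPM (663 to 671). T cells had 18.2, 20.5 and 33.8 CPM, so the groups of values did not overlap, and the pooled ratio was 32.3 (25.3 to 41.9). Reg1 was positive in 48.5% of epithelial cells (47.5 to 49.5%) and 5.65% of T cells (4.36 to 7.19%), or 19.0% and 1.96% after thinning.

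Mup20, whose protein is a lipocalin that carries small hydrophobic ligands into male urine, had epithelial values of 405, 703 and 669 CPM by library. Its pooled level was 614 CPM (610 to 618). Library 1 was the lowest, with an interval of 399.8 to 411 CPM. T cells were at 10.9, 34.1 and 50.8 CPM, and the pooled ratio was 22.6 (18.3 to 28.4). Mup20 was positive in 80.9% of epithelial cells (80.1 to 81.6%), against 7.47% of T cells (5.99 to 9.19%), or 32.7% and 3.08% after thinning.

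The elastase gene was lower. Cela1 was at 49.4, 59.5 and 59.7 CPM in epithelium by library and at 56.8 CPM (55.6 to 57.9) over all, rank 2682. T cells held 1 UMI in library 1, 8 in library 2 and 0 in library 3. With those 9 UMIs, the pooled ratio was 19.5 (10.3 to 42.7). In library 3, where T cells had no UMI, epithelium was at least 4.71-fold higher, with 3 UMIs taken as the floor. Cela1 was positive in 52.3% of epithelial cells (51.3 to 53.3%) and 0.820% of T cells (0.376 to 1.55%). After thinning, it was in 5.50% and 0.280%.

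By the rule of 20 UMIs in epithelium and a level at least 4-fold above T cells, these 4 of 7 members were called, against 15% of the 15318 genes with enough UMIs. The members were listed for such levels, so nothing is read from that share. The same 4 were at 10 CPM or more, as were 25% of all genes in the matrix. T cells carried 3.10 to 5.12% of the epithelial level of these 4 members, and 3.27 to 6.88% of that of the 9 epithelial gating markers, with a median of 5.53%. By library these shares differed. They were 1.56 to 2.69%, 3.39 to 7.64% and 0 to 7.58% for the members, and the marker medians were 2.96%, 6.27% and 10.2%. Of all T cells, 153 had no UMI of those markers. They held 12 UMIs of Ctrb1, 6 of Reg1, 8 of Mup20 and 0 of Cela1. The ratio of epithelium to these cells was 28.9 for Ctrb1, 40.6 for Reg1 and 28.0 for Mup20. Against all T cells it was 31.3, 32.3 and 22.6. What part of the T cell counts was free RNA was not tested.

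**Figure D1:**
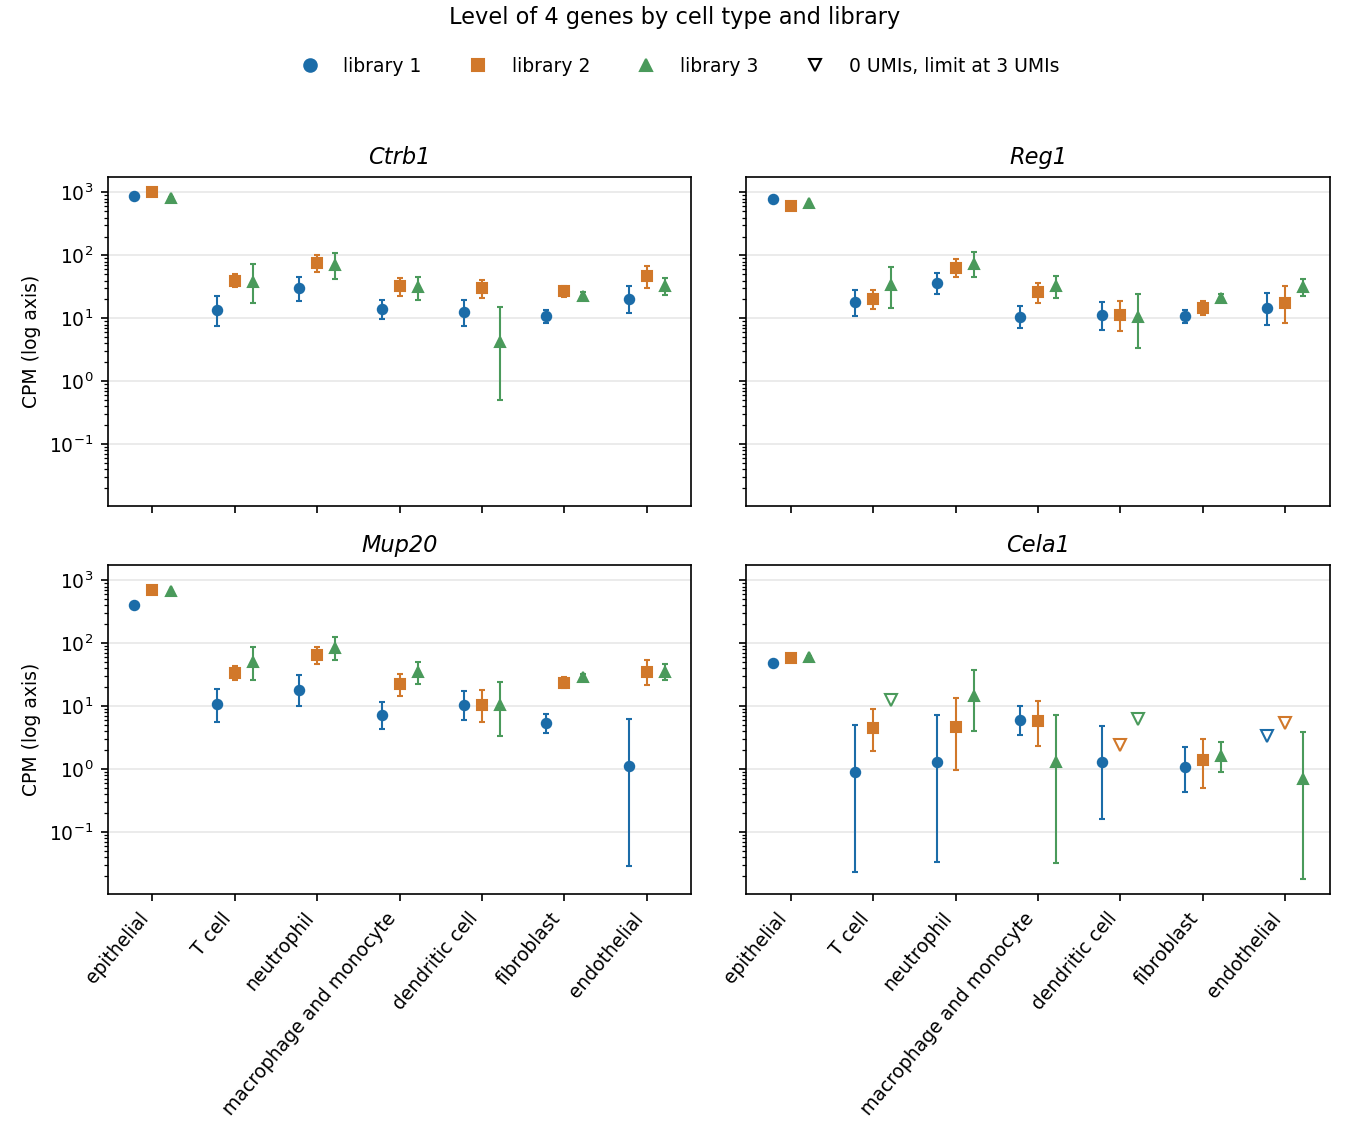
Level of Ctrb1, Reg1, Mup20 and Cela1 in epithelial cells and 6 other cell types, as CPM on a log axis with exact Poisson 95% intervals and 1 point per library. Open triangles mark 0 UMIs, drawn at the level of 3 UMIs. Epithelial points sit above those of the other types drawn, at 949 CPM over all epithelial cells for Ctrb1 against 54.0 CPM in neutrophils.

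Other cell types stayed near the T cell reading with a few exceptions. Over 15 types with 20 or more cells outside the epithelial gate, T cells among them, the median level was 29.6 CPM for Ctrb1, 20.7 CPM for Reg1, 20.0 CPM for Mup20 and 2.48 CPM for Cela1. Neutrophils, with a median of 1092 UMIs, had 54.0 CPM of Ctrb1, 53.4 CPM of Reg1 and 47.4 CPM of Mup20. Dendritic cells were the lowest for Ctrb1 and Reg1, at 18.1 and 11.2 CPM. Plasma cells had 159 CPM of Ctrb1 (135 to 186), but 144 of the 151 UMIs in library 2 came from 1 cell. In the smooth muscle cells of library 3, 70 of 143 Reg1 UMIs likewise came from 1 cell. Tuft cells, chemosensory epithelial cells gated apart, had 134 CPM of Mup20 (93.3 to 186), from 35 UMIs in 36 cells, 20 of them in 1 cell. Schwann and glial cells had 49.4 CPM of Cela1, from 4 UMIs in 61 cells. That interval of 13.5 to 126 CPM holds the epithelial level, so their order could not be told.

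The other 3 pancreatic genes were not seen as epithelial transcripts. Prss2 had 2 UMIs in 9687 epithelial cells, and 28 UMIs in 17 of all 27700 barcodes. Of these, 9 UMIs were in 7 neutrophils, where the level was 5.40 CPM, 4 in 2 T cells and 10 in 4 cells that met no gate. Pnlip had 0 UMIs in any barcode. Cpa1 had 6 UMIs in all and none in epithelium. With 3 UMIs taken as the floor, a count of 0 there allows a level of up to 0.0171 CPM. With 3 cells as the floor, up to 0.031% of epithelial cells could have a UMI, which is no limit on cells that hold the transcript. The exact intervals used elsewhere would reach somewhat higher. At this depth Ctrb1 was thus counted 166091 times in cells that held 2 UMIs of Prss2 and none of Pnlip or Cpa1.

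No cell passed as a pancreatic acinar cell. Of 14 acinar marker genes that are not among the 7, no barcode held 3 or more, 4 kept cells held 2 and 730 held 1. Among epithelial cells, 649 held at least 1. Most of these held Sycn, the syncollin gene and 1 of the 14, which was detected in 6.38% of epithelial cells. Hepatocytes, the main source of urinary proteins, were 6 cells by their gate.

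Epithelial cells fall into kinds by 2 genes that are not members. Aqp1, a water channel, and Lcn2, an antimicrobial lipocalin, each split the cells at 200 CPM. This limit was set after their values were seen, and 13.1% of cells lay between 100 and 400 CPM for Aqp1 and 8.80% for Lcn2. Aqp1-high cells numbered 4407, Lcn2-high cells 3526, cells high in both 340 and cells high in neither 1414. Aqp1-high cells made up 32.5%, 45.3% and 58.0% of the epithelium of libraries 1, 2 and 3, and Lcn2-high cells 44.0%, 38.7% and 20.5%. Both kinds had nearly the same depth, with medians of 13648 and 13328.5 UMIs.

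Ctrb1 was divided almost completely between the kinds. Aqp1-high cells had 2165, 1872 and 1248 CPM by library. Lcn2-high cells had 29.4, 49.1 and 29.0 CPM. The pooled levels were 1784 and 40.3 CPM, a ratio of 44.2 (42.5 to 46.05), and the ratio was 73.7, 38.1 and 43.0 by library. Among the 7778 genes at 10 CPM or more, the ratio of Ctrb1 took rank 6, and that of Aqp1 itself, which defines the kinds, rank 4. The Aqp1-high kind held 90.3% of epithelial Ctrb1 UMIs with 45.5% of the cells. It was positive in 94.4% of Aqp1-high cells, or 63.1% after thinning to 1000 UMIs.

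The Ctrb1 level of Lcn2-high cells lay much nearer to that of T cells. Their pooled ratio was 1.33 (1.08 to 1.65). By library it was 2.15 (1.30 to 3.87), 1.24 (0.972 to 1.59) and 0.762 (0.393 to 1.69), so only the interval of library 1 lay above 1. After thinning, 1.97%, 4.58% and 4.44% of Lcn2-high cells were positive in libraries 1, 2 and 3, against 1.91%, 4.71% and 5.04% of T cells. The thinned shares differed little from those of T cells, and what part of these counts was free RNA was not tested. Unthinned, the shares were 30.6% of Lcn2-high cells and 8.11% of T cells, at median depths of 13328.5 and 2353 UMIs. Cells high in neither gene were between the kinds at 249, 544 and 109 CPM, and cells high in both at 909 and 322 CPM in libraries 2 and 3.

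Reg1 and Mup20 also favoured the Aqp1-high kind, with smaller ratios. For Reg1, Aqp1-high cells had 1274, 917 and 877 CPM by library and Lcn2-high cells 338, 111 and 141 CPM. The pooled ratio was 5.15 (5.05 to 5.25), and 3.76, 8.27 and 6.23 by library. Without library 1 it was 7.82. In cells high in neither gene Reg1 was at 814, 959 and 575 CPM. This was above the Aqp1-high level in library 2, and below it in libraries 1 and 3, where the ratio of Aqp1-high to these cells was 1.57 (1.53 to 1.61) and 1.53 (1.46 to 1.59). Its thinned share was 30.0% of Aqp1-high, 6.68% of Lcn2-high and 15.4% of these cells, against 1.96% of T cells. A single Lcn2-high cell of library 1 held 1331 of the 7043 Reg1 UMIs of its kind there.

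Mup20 was at 766, 1004 and 842 CPM in Aqp1-high cells and 159, 377 and 347 CPM in Lcn2-high cells. Its pooled ratio was 3.04 (3.00 to 3.09), with 4.81, 2.66 and 2.43 by library, and its thinned shares were 43.5% and 22.3%. Unlike Ctrb1, it was well above T cells in the Lcn2-high kind, by 11.1-fold (8.94 to 13.9). Reg1 was 9.23-fold (7.22 to 12.0) above T cells there and Cela1 17.6-fold (9.24 to 38.4).

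Cela1 was nearly level across the kinds. It was at 49.6, 60.4 and 57.6 CPM in Aqp1-high cells and 44.3, 53.7 and 58.8 CPM in Lcn2-high cells. Library 3 had the opposite order from libraries 1 and 2, within counting error, at a ratio of 0.981 (0.873 to 1.10). The pooled ratio was 1.13 (1.08 to 1.18), and the thinned shares were 5.74% and 4.85%. Cells high in neither gene were highest, at 61.1, 78.1 and 75.3 CPM. Its UMIs were spread over the kinds much as the cells were, with 48.6% in the Aqp1-high kind.

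By a limit of 2-fold, 3 of 7 members were higher in Aqp1-high cells, against 6.77% of the 14324 genes with 20 UMIs in either kind (4.13% of the 8155 genes at 10 CPM in either), and 0 were higher in Lcn2-high cells, against 9.54%. The kinds were part of how the members were listed, so nothing is read from these shares.

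**Figure D2:**
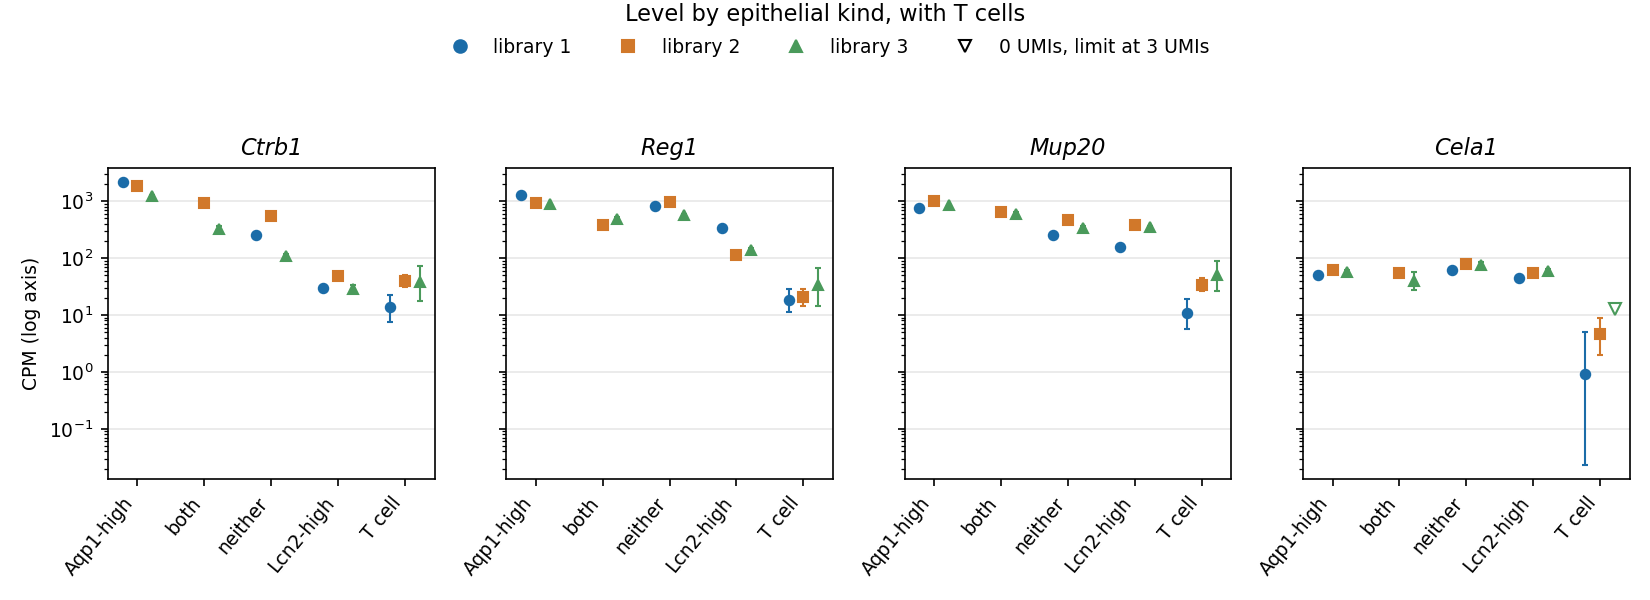
Level by epithelial kind and in T cells, as CPM on a log axis with exact Poisson 95% intervals and 1 point per library (cells high in both genes numbered 19 in library 1 and are not drawn). Ctrb1 drops from 1784 CPM in Aqp1-high to 40.3 CPM in Lcn2-high cells, against 30.4 CPM in T cells, whereas Cela1 is at 57.4 and 51.0 CPM.

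The levels were also read along Aqp1, with no limit between kinds. Epithelial cells of each library were put in a group with 0 Aqp1 UMIs, and the rest in 5 equal steps by rising Aqp1 level. Ctrb1 went from 26.6 CPM in cells with no Aqp1 UMI to 707 CPM in step 2 and 2585 CPM in step 5 of library 1. The same groups had 76.6, 1131 and 2029 CPM in library 2, and 43.9, 857 and 1315 CPM in library 3. The rise was small beyond step 3 in these libraries. From step 3 to step 5 Ctrb1 went from 1908 to 2029 CPM in library 2, and from 1273 to 1315 CPM in library 3. Mup20 rose more slowly, from 161 to 915 CPM in library 1, 367 to 1225 CPM in library 2 and 297 to 1044 CPM in library 3. Reg1 rose in library 2, from 229 to 970 CPM, but had no steady order in the others, with 581 CPM at 0 Aqp1 UMIs and 260 CPM in step 1 of library 1. In step 5 of library 3 it was at 579 CPM, against 1073 CPM in step 3. Cela1 stayed between 45.3 and 71.0 CPM in every step of every library. Depth differed between these groups, with a median of 5692 UMIs at 0 Aqp1 UMIs and 18587 UMIs in step 1 of library 3.

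**Figure D3:**
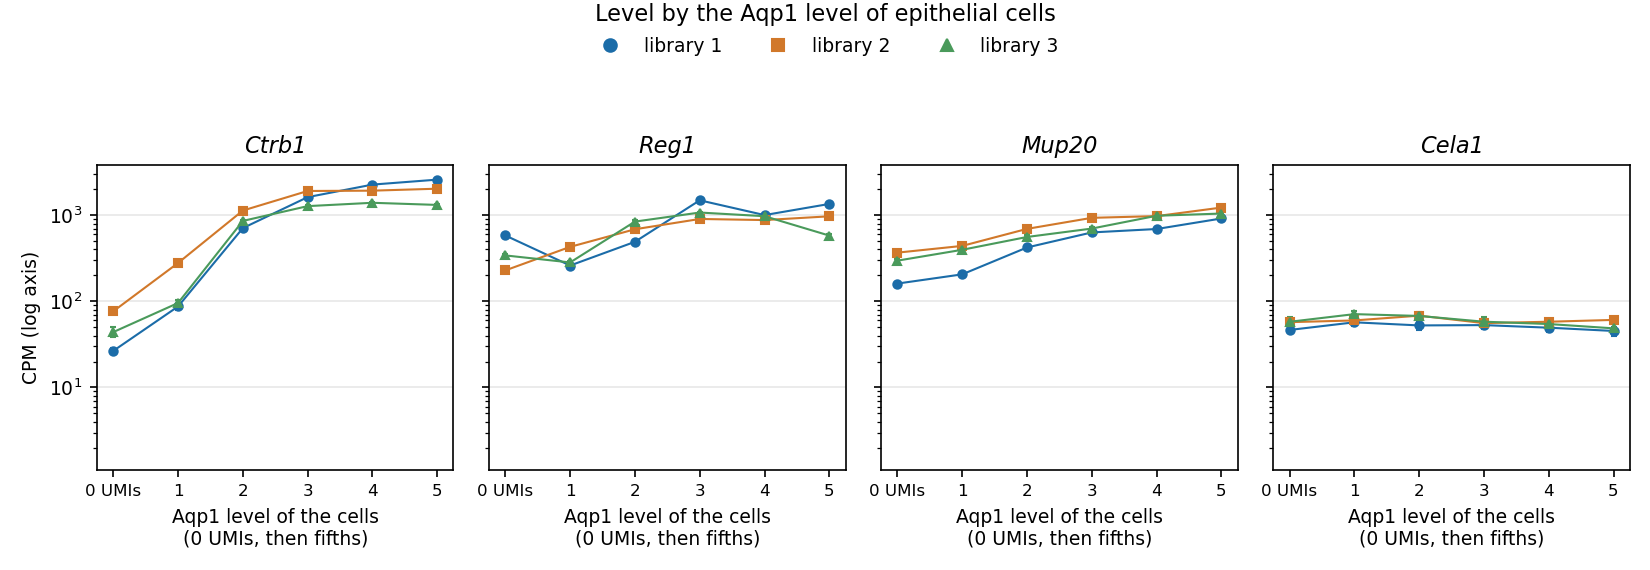
Level of each gene in epithelial cells grouped by their Aqp1 level, from cells with 0 Aqp1 UMIs to step 5, as CPM on a log axis with exact Poisson 95% intervals and 1 line per library. Ctrb1 rises from 26.6 to 2585 CPM in library 1 and levels off in libraries 2 and 3, and Cela1 stays flat.

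Correlations over cells describe the same pattern. The cells of a library are not independent replicates, and their depth varied. With a cell's total UMIs, Ctrb1 had a rho of 0.27, 0.21 and 0.30 by library, and Reg1 of 0.29, 0.20 and 0.32. For Mup20 that rho was 0.31, 0.19 and 0.31, and for Cela1 0.18, 0.16 and 0.38. What part of the correlations below followed depth was not tested. Spearman's rho between Ctrb1 and Aqp1 was 0.78, 0.72 and 0.66 over 1544, 6456 and 1687 cells of libraries 1, 2 and 3, and between Ctrb1 and Lcn2 -0.55, -0.63 and -0.45. Ctrb1 and Mup20 had a rho of 0.51, 0.33 and 0.33, and Ctrb1 and Reg1 of 0.32, 0.38 and 0.39. Cela1 had a rho between -0.01 and 0.14 with each of the other 3 members, too weak to read in sparse counts.

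The members also differed in how unevenly cells held them. Cells were ranked here by their UMIs of a gene, over libraries with epithelial medians of 27281.5, 12377.5 and 12071 UMIs. What part of these shares followed depth or a gene's mean count was not tested. The top 10% of epithelial cells held 81.6% of all Reg1 UMIs, 60.0% of Ctrb1, 53.6% of Mup20 and 42.0% of Cela1. Only 2.86% of cells held 50% of Reg1, against 7.11% for Ctrb1, 8.67% for Mup20 and 13.1% for Cela1. The most Reg1 in an epithelial cell was 1331 UMIs, and the highest per-cell level 49594 CPM. Its median cell had 0 CPM and its 90th percentile cell 1477 CPM. Ctrb1 had a median of 159 CPM and a 90th percentile of 2725 CPM, and Mup20 of 283 and 1471 CPM.

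Of the 969 cells highest in Reg1, ranked by CPM, 77.1% were Aqp1-high, 7.02% Lcn2-high and 13.5% high in neither. For Ctrb1, 93.0% were Aqp1-high and only 1 cell was Lcn2-high. Sets of this size drawn without regard to kind would share 10% of their cells on average. The highest cells of Mup20 were likewise mostly Aqp1-high (76.4%), a kind with 45.5% of epithelial cells. For Ctrb1, Reg1 and Mup20, 10% is therefore too low a mark. What part of their overlaps followed the kinds was not tested. The highest 969 cells of Ctrb1 and of Reg1 shared 210 cells, 21.7% of each. Those of Ctrb1 and Mup20 shared 199, or 20.5%, and those of Reg1 and Mup20 148, or 15.3%. The overlaps of Cela1 were near 10%, with 105 cells (10.8%) for Ctrb1, 89 (9.18%) for Mup20 and 83 (8.57%) for Reg1. With only 9933 Cela1 UMIs in 9687 epithelial cells, its highest cells are poorly defined, so these overlaps are not read as independence. All 4 members were detected in 20.7% of epithelial cells, 3 in 31.8%, 2 in 26.2%, 1 in 15.3% and none in 5.94%, at unequal depth.

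**Figure D4:**
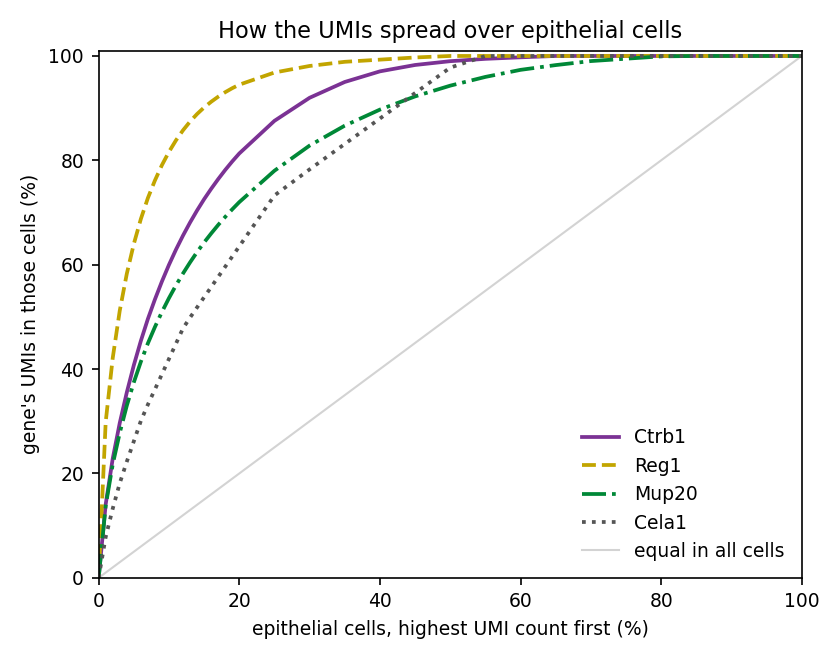
Cumulative share of a gene's UMIs (vertical axis, percent) held by the epithelial cells with the most UMIs of it (horizontal axis, percent of 9687 cells), pooled over libraries. Reg1 is the most concentrated, with 81.6% of its UMIs in the top 10% of cells, and Cela1 the least, with 42.0%.

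Genes that work with these zymogens were read from 9 fixed lists, as non-members at 10 CPM and 20 UMIs or more in epithelium. All genes of the matrix had a median of 0.0971 CPM, and 25% of them passed this minimum. The lists were chosen with earlier results known, so nothing is read from how many genes of a list passed. Genes named below 10 CPM, and Nr5a2 and Rbpj, were chosen after their values were seen. Among 27 other acinar secretory genes the median was 0.00571 CPM, 13 had 0 UMIs, and only Gp2 passed, at 28.4 CPM (a zymogen granule membrane protein). Gp2 was higher in Lcn2-high than in Aqp1-high cells, 50.5 against 11.9 CPM. The next were at a few CPM. Pla2g1b, the secreted phospholipase of pancreatic juice, was at 6.61 CPM, with 12.2 CPM in Aqp1-high and 0.535 CPM in Lcn2-high cells. Syncollin, Sycn, was at 4.35 CPM and the ribonuclease Rnase1 at 2.51 CPM. Amylase, colipase and the other elastases had at most 3 UMIs. Sequence shared between genes of these families was not checked, so these low counts are not read as absence.

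Of 6 genes that activate or restrain zymogens, the lysosomal proteases Ctsb and Ctsl passed, at 421 and 251 CPM. Cathepsin B can activate trypsinogen, and both are general lysosomal enzymes. The trypsin inhibitor Spink1 was at 0.526 CPM and enteropeptidase, Tmprss15, at 0.0571 CPM, both below the minimum. Among 6 other Reg genes, Reg3g, an antibacterial lectin of the gut, passed at 81.5 CPM. It ran opposite to Reg1, with 204 CPM in Lcn2-high and 6.74 CPM in Aqp1-high cells. No other Mup gene passed. Of 20, 14 had 0 UMIs and the highest, Mup3, had 0.274 CPM. Mup1 had 1 UMI in all kept cells, gated hepatocytes among them. Shared sequence was checked for the 7 members only, so a count near 0 here is not read as absence. How far shared sequence lowered these counts was not tested.

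Of 17 pancreatic and biliary transcription factors, 10 passed, against 25% of all genes, and the list's median was 32.5 CPM. Onecut2 was at 639 CPM, Gata6 at 141, Sox9 at 140 and Sox17 at 110 CPM. Sox17 directs gallbladder and bile duct fate in the embryo. The acinar factors Ptf1a and Rbpjl had 0 UMIs. Nr5a2, an orphan receptor used in acinar cells, was at 33.2 CPM, Rbpj at 32.5, Pdx1 at 5.15 and Bhlha15, the acinar factor Mist1, at 0.771 CPM. Rbpj was higher in T cells, at 109 CPM. In Aqp1-high cells Sox9 was at 46.8 CPM against 245 CPM in Lcn2-high cells, the reverse of Ctrb1, and Sox17 at 147 against 70.9 CPM.

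Of 8 genes listed under acinar secretory machinery, 4 passed, against 25% of all genes. They were Nupr1 at 406, Xbp1 at 381, Chrm3 at 36.7 and Rab3d at 30.6 CPM. Nupr1 was uneven over libraries, at 497, 481 and 40.3 CPM. It was at 815 CPM in Lcn2-high and 127 CPM in Aqp1-high cells, the reverse of Ctrb1. Chrm3 encodes the muscarinic receptor that drives acinar secretion, and Rab3d a granule GTPase. None of 7 islet hormone genes passed. Of 10 hepatocyte genes only the transthyretin gene Ttr did, at 832 CPM, while Alb, albumin, was at 1.62 CPM. Of 8 stomach and duodenum genes, Pgc, the pepsinogen C gene and thus another zymogen, passed at 26.2 CPM, and Tff1 at 17.1 CPM. Pgc had 44.4 CPM in Aqp1-high and 3.00 CPM in Lcn2-high cells, the same direction as Ctrb1.

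**Figure D5:**
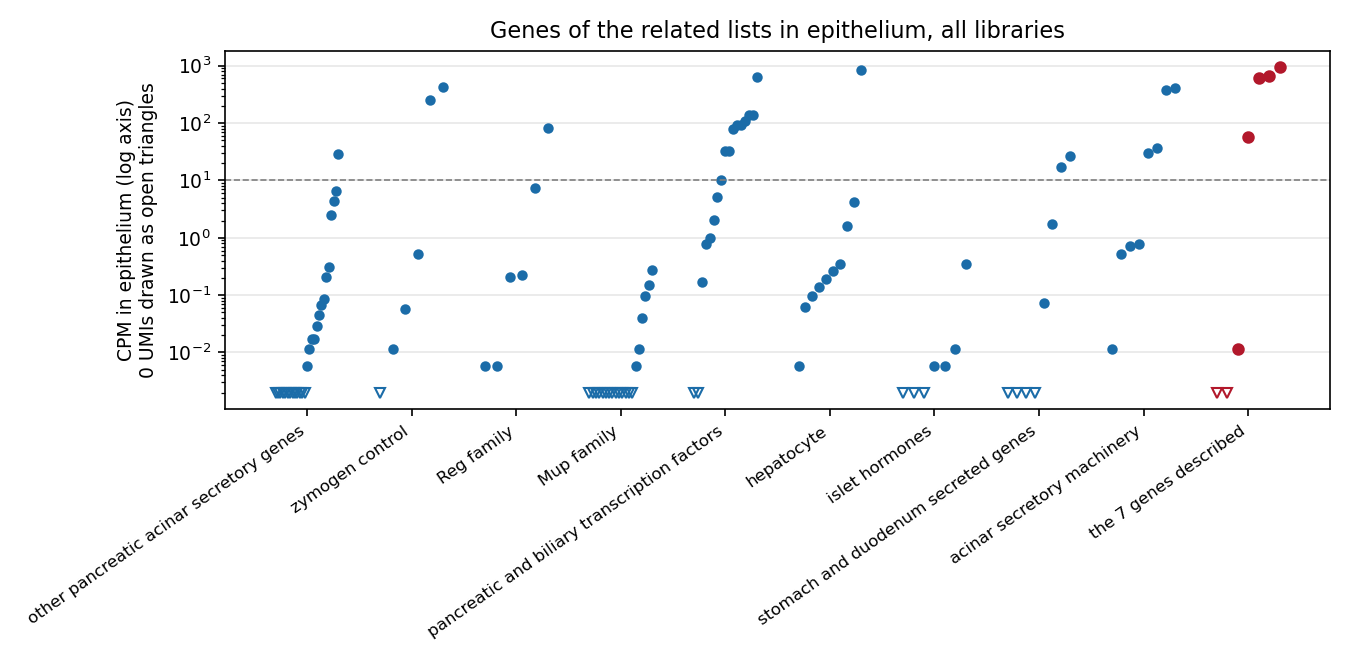
Level in epithelium, over all libraries, of the genes of 9 lists (blue) and of the 7 members (red), as CPM on a log axis, with genes at 0 UMIs as open triangles below the axis range and a dashed line at 10 CPM. Acinar genes lie almost wholly below the line, as do Prss2, Pnlip and Cpa1, while 4 members lie above it.

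Genes with the most similar pattern were sought by Pearson correlation of log2(CPM + 1) over 37 sums of cell type and library, among 7778 genes. These points share libraries and a large step between epithelium and the rest, so the values only describe likeness. For Ctrb1 they were Ly6d (r = 0.95), Lgals4 (0.91) and S100g (0.91), and for Reg1 Fcgbp (0.90), Pigr (0.88) and Ambp (0.88). Mup20 was most like Sult1c2 (0.90), Tmprss2 (0.84) and Tstd1 (0.84), and Cela1 most like Wfdc15b (0.84), Cyp2c65 (0.79) and Mlph (0.78). No member was among the 3 nearest genes of another. Ctrb1 and Reg1 had r = 0.74, Ctrb1 and Mup20 0.67, and Cela1 and Mup20 0.46. Most of these sums are of cells outside the epithelial gate, where the members had few UMIs. Within epithelium, over 11 sums of kind and library, the values differed. Ctrb1 and Reg1 had r = 0.80, Ctrb1 and Mup20 0.84, and Cela1 and Mup20 0.02. The nearest genes there were also others, such as Bcat2 for Ctrb1 (0.99).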

How the data were processed

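The authors deposited 1 matrix of unnormalized UMI counts. The submitters' processing notes name Cell Ranger 6.1.1 and GRCm38. The annotation version, strand setting and handling of shared reads are not given in the sources used here. The 3 libraries held 72943584, 121349261 and 58172348 UMIs. A barcode needed 300 genes, and up to 20% of its UMIs could be mitochondrial. Scrublet in scanpy 1.11.5 (expected rate 6.0%, score 0.25, seed 0) marked 1024 doublets, which were removed. A cell took the type with the highest summed marker level, relative to the median of cells with most markers of that list. It needed 3 markers and a relative level of 0.25. It was called mixed (1078 cells) where an unrelated list passed 0.5 of its level, and 1808 cells had no type. The score limits and the 200 CPM limit were set after the data were seen, and the members and lists were chosen with earlier results of these data known. Cells were thinned without replacement to 1000 UMIs. Each list's 4 highest genes at 10 CPM are named, and the transcription factors with the lowest level. Amy2b, Spink3 and Cblif were not found under those symbols. Intervals are from scipy 1.17.1. Ratio intervals and the rule of 4-fold above T cells were run on simulated Poisson counts, the form that the intervals assume. The real counts were less even over cells, so that run cannot show how well the intervals hold here. No replicates exist, so no test was made. Alternatives changed filters, gates, thinning, weighting, background cells, limits and libraries included.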

Additional observations from a re-analysis of the deposited data

Results flagged for a closer look

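Barcodes left out by the filters, 2707 in all with 18204286 UMIs, also held the 4 epithelial members, which flagged them as signal outside the main measurement, above the limit of 3 UMIs. They had 11555 UMIs of Ctrb1 (635 CPM), 9174 of Reg1 (504 CPM), 7472 of Mup20 (410 CPM) and 822 of Cela1 (45.2 CPM). These levels are below those of gated epithelium, but the barcodes left out were pooled over all cell types, so the comparison is not of like cells. Prss2 and Pnlip had 0 UMIs in these barcodes and Cpa1 had 1.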

How the results depend on the processing

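The counts of members above T cells, at the CPM minimum and differing between kinds stayed within 1.5 times of 4, 4 and 3 under 17, 12 and 14 alternatives. The count above T cells was 3 where only Lcn2-high cells stood for epithelium, since Ctrb1 was 1.33-fold above T cells there. This alternative and that of epithelial cells of 10000 UMIs or more, which called 4 above T cells and 3 between kinds, were chosen after seeing the data. The ratio of epithelium to T cells for Ctrb1 was 19.9 with cells thinned to 1000 UMIs and 47.7 without library 2. That of Cela1 was 71.4 without library 2, which left 1 T cell UMI, 30.9 with libraries weighing the same and at least 6.91-fold above T cells with no epithelial marker UMI. Against neutrophils the ratios were 17.6 for Ctrb1, 11.8 for Cela1, 12.5 for Reg1 and 13.0 for Mup20. The ratio of Aqp1-high to Lcn2-high cells often left its counting interval. It did so under 10 of 13 alternatives for Ctrb1, from 36.6 without library 1 to 57.3 without library 2. For Reg1 and for Mup20 it did so under 9 of 13, and for Cela1 under 2 of 13. Of 112 recomputed ratios, 13 moved by more than 1.5 times. No ratio changed direction under any alternative run. No paired analysis was possible because each group is 1 library and no library is assigned to a group. The T cell reading of Cela1 rests on 9 UMIs in all.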
